A study of Mus musculus with 3 samples.

Results

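Expression of 39 genes that encode the parts of cell-cell junctions was described in integrin alpha6-positive, Sca1-negative (Alpha6+/Sca1-) cells of mouse back skin. The genes were chosen by symbol for their place in a junction and not by a measured value of theirs, although earlier results of these data were known. They are 14 desmosome, 11 adherens junction, 10 tight junction and 4 gap junction genes, out of 44625 gene entries in the deposited table. All 39 were found, 5 of them under an older symbol (Nectin1 to Nectin4 as Pvrl1 to Pvrl4, and Afdn as Mllt4). The 3 libraries, replicates 1 to 3, form 1 group: sorted cells of wild-type (WT) mice aged 56 days (P56), in the second telogen, with no treatment or engineered allele named. The labels do not say whether animals were pooled, and their protocol speaks of duplicates although there are 3 libraries, so the spread between libraries may in part be technical. Levels are given as TPM (read counts corrected for gene length and library size), as mean ± SD over the 3 libraries.

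Desmosomes tie the keratin filaments of neighbouring skin cells together. Their transmembrane cadherins, the desmogleins (Dsg) and desmocollins (Dsc), are bound inside the cell by plakoglobin (Jup) and plakophilins (Pkp), and desmoplakin (Dsp) links these to keratin. Adherens junctions are built in the same way from classical cadherins and catenins, with nectins and afadin as a second adhesion system, and are coupled to actin. Tight junctions seal the space between cells through claudins and occludin, and gap junctions are channels made of connexins that let small molecules pass between cells. In epidermis, Dsg3 and Dsc3 are known from basal cells and Dsg1 and Dsc1 from differentiating cells, and the tight junction barrier sits in the granular layer.

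Replicate 1 was the smallest library with 29283936 counts, and replicate 3 the largest with 39198620. Replicate 1 had 14125 genes at a TPM of 1 or more, against 13091 in replicate 2 and 13028 in replicate 3. All 8 hair follicle stem cell markers and all 6 basal keratinocyte markers were detected at a mean TPM of 1 or more, with Krt15 at 23208.0 ± 3176.2 TPM and Cd34 at 535 ± 56.8 TPM. This limit does not tell cell types apart, since all 8 suprabasal and all 6 upper follicle markers passed it too. Of markers of other cells, the 5 endothelial genes summed to between 0.239 and 0.373 TPM per library and 3 of them had no counts at all. The 5 immune genes summed to between 10.8 and 19.9 TPM, the 6 fibroblast genes to between 18.0 and 45.3 TPM, and the 4 Merkel cell genes to between 4.03 and 5.04 TPM with Krt20 and Atoh1 at 0 counts. The 6 melanocyte genes summed to between 38.7 and 60.0 TPM, the 6 sebaceous gland genes to between 174 and 269 TPM, and the 7 companion layer and inner root sheath genes to between 593 and 939 TPM, of which Krt6a alone gave 490, 672 and 831 TPM. The 8 suprabasal markers were all present and summed to 5350.7, 6631.5 and 9678.8 TPM in replicates 1, 2 and 3, and the 6 upper follicle markers to 4714.5, 4234.8 and 3191.7 TPM. In such bulk samples, fewer cells of a type and less RNA per cell cannot be told apart.

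Taking a mean TPM of 1 or more as detected, 34 of the 39 junction genes (87.2%) passed, against 30.6% of all gene entries and 54.9% of protein-coding ones. The same number, 34, reached that level in each library. The exceptions were Dsg1c, Pkp2, Cdh2, Ctnna2 and Cldn7. Summed over its genes, the desmosome class had 3013.4 ± 361 TPM, the adherens junction class 1177.5 ± 38.0 TPM, the tight junction class 538 ± 27.9 TPM and the gap junction class 227 ± 38.8 TPM (SD, n = 3). The order of the 4 sums was the same in every library.

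**Figure D1:**
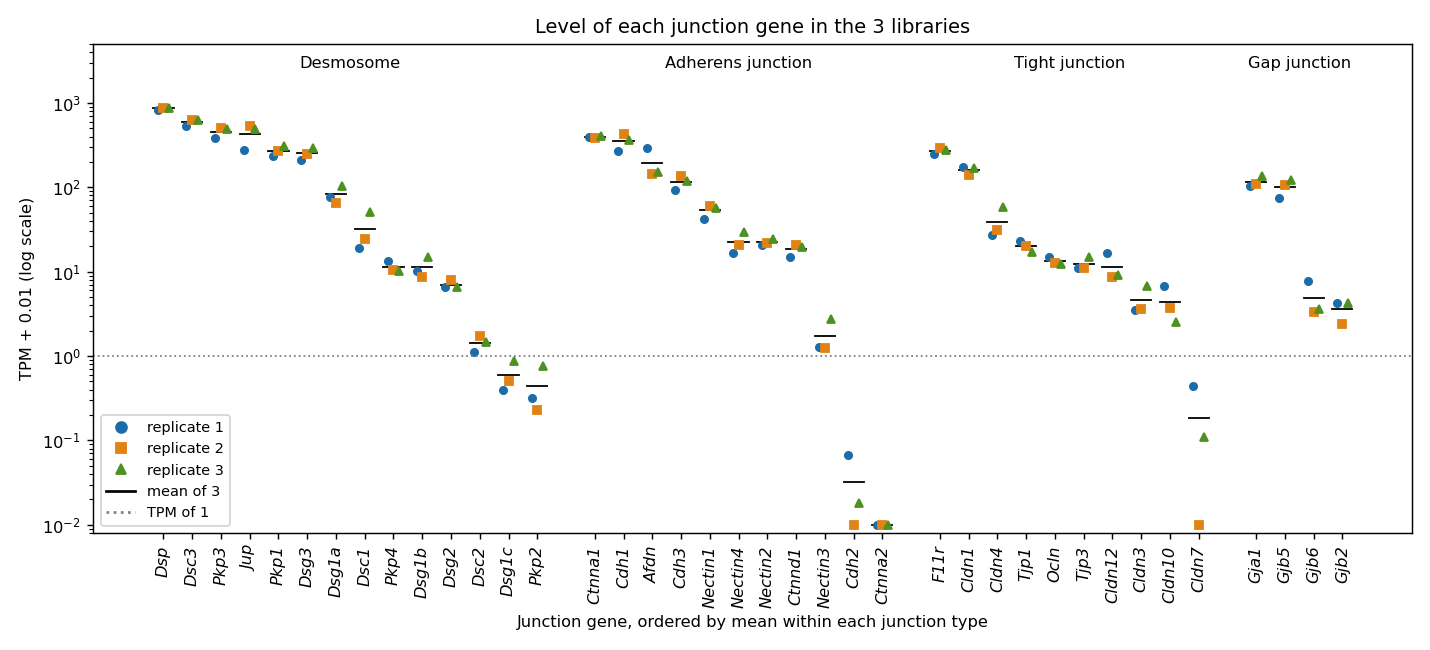
TPM + 0.01 of each junction gene on a log axis, by junction type, with 1 point per library (circle, square and triangle for replicates 1, 2 and 3) and a bar at the mean. Dsp, Dsc3 and Pkp3 lead the desmosome genes, and the 5 genes under the dotted line at a TPM of 1 are Dsg1c, Pkp2, Cdh2, Ctnna2 and Cldn7.

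Among desmosome plaque genes, Dsp, which anchors keratin filaments, was the highest of all 39 genes, with 833, 883 and 872 TPM in replicates 1, 2 and 3 (863 ± 26.1 TPM, SD, n = 3). Its 3 values lay within 1.06-fold of each other. Pkp3, a plakophilin found throughout the epidermis, had 388, 499 and 486 TPM, and Pkp1, which clusters desmoplakin, had 233, 269 and 306 TPM. Pkp3 was above Pkp1 in every library. Jup, the plakoglobin shared by desmosomes and adherens junctions, had 277, 527 and 495 TPM. Replicate 1 was low for Jup, by 1.9-fold against replicate 2, while Dsp was nearly level. Pkp4, a relative that also binds classical cadherins, had 11.4 ± 1.73 TPM (SD, n = 3). Pkp2, the plakophilin of heart and simple epithelia, rested on 18, 16 and 63 counts and had 0.312, 0.218 and 0.762 TPM.

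Among the desmosomal cadherins, whose genes lie on chromosome 18, 1 desmocollin and 1 desmoglein held most of the transcripts. Dsc3 had 530, 620 and 627 TPM and made up 94.8% ± 2.27 of the desmocollin TPM (SD, n = 3). Dsc1 had 19.2, 24.4 and 51.4 TPM, with replicate 3 at 2.68 times replicate 1. Dsc2, the form of simple epithelia, had 1.11, 1.70 and 1.47 TPM, and the log2(TPM + 1) difference of Dsc2 from Dsc3 was -7.94 ± 0.08. Dsg3 had 212, 248 and 296 TPM, which was 71.4% ± 3.14 of the desmoglein TPM. Dsg2, the widely expressed desmoglein, had 6.53, 7.89 and 6.63 TPM, so Dsg3 and Dsg2 did not come near each other in any library.

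The mouse has 3 close copies of the desmoglein 1 gene. Dsg1a had 77.1, 65.7 and 105 TPM, Dsg1b 10.2, 8.75 and 14.9 TPM, and Dsg1c 0.386, 0.50 and 0.856 TPM. All of them were highest in replicate 3. Their longest GENCODE transcripts were 97.3% identical for Dsg1a and Dsg1b over 3564 aligned bases and 95.7% for Dsg1a and Dsg1c over 3355, and how reads shared between copies were counted is not given in the sources used here. The split among the copies is therefore uncertain. Their sum, an alternative chosen after seeing the data, was 87.8, 75 and 121 TPM, or 26.6% ± 3.43 of the desmoglein TPM (SD, n = 3). Desmocollins summed to 1.80, 1.95 and 1.60 times the desmogleins in replicates 1, 2 and 3.

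**Figure D2:**
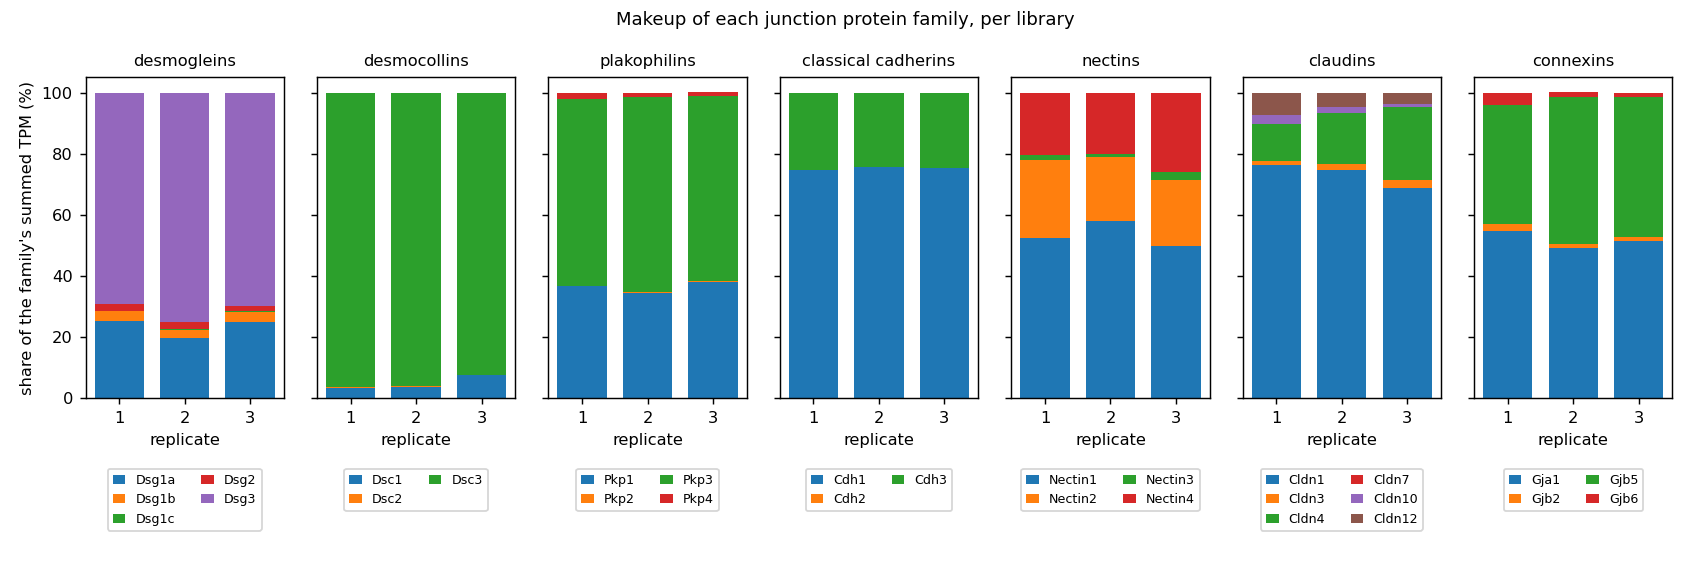
Share in percent of each family's summed TPM held by each gene, stacked for replicates 1, 2 and 3. Dsc3 takes from 92.2% to 96.3% of the desmocollin bar, Cdh1 75.3% on average of the classical cadherin bar, and the Cldn4 part of the claudin bar goes from 11.9% in replicate 1 to 23.7% in replicate 3.

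In adherens junctions, Cdh1 (E-cadherin) and Cdh3 (P-cadherin, a cadherin of basal and follicle cells) were both expressed. Cdh1 had 270, 429 and 365 TPM and Cdh3 had 92.0, 137 and 119 TPM. Both were lowest in replicate 1 and highest in replicate 2, and their ratio hardly moved, at 2.93, 3.13 and 3.06. This gave a log2(TPM + 1) difference of 1.60 ± 0.05 (SD, n = 3), a small spread for a pair whose members each differed 1.49-fold or more between libraries. Cdh2 (N-cadherin, of neural and mesenchymal cells) had 5, 0 and 1 counts.

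Ctnna1 (alpha-E-catenin), which couples cadherins to actin, was the most even junction gene, with 394, 386 and 402 TPM (coefficient of variation 2.02%). No read was counted for its neuronal relative Ctnna2 in any library, and the upper limit from a count of 0 is 0.0401 TPM in replicate 1, where 3 counts are worth most. Ctnna1 was at least 9845-fold higher than that limit of 3 counts per library. Ctnnd1 (p120-catenin), which keeps cadherins at the membrane, had 15.0, 20.9 and 19.6 TPM, well below Ctnna1 in every library.

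Of the nectins, Nectin1 had 42.6, 60.6 and 56.4 TPM and took 53.5% ± 4.26 of the nectin TPM (SD, n = 3). Nectin2 had 20.6, 21.7 and 24.6 TPM and Nectin4 had 16.6, 20.7 and 29.6 TPM, and their order differed between libraries. Nectin3 was low, with 1.26, 1.23 and 2.74 TPM. Afdn (afadin), the scaffold that binds nectins to actin, had 293, 142 and 150 TPM. Replicate 1 stood alone as high for Afdn, 2.06 times replicate 2, in the opposite direction to Jup and the cadherins.

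Among tight junction genes, F11r (junctional adhesion molecule A) led with 245, 289 and 280 TPM and Cldn1, the claudin needed for the epidermal water barrier, followed with 176, 139 and 169 TPM. Cldn1 made up 73.2% ± 3.95 of the claudin TPM (SD, n = 3). Cldn4, a sealing claudin of differentiated epithelium, had 27.4, 31.4 and 58.2 TPM, and its neighbour Cldn3 had 3.46, 3.60 and 6.80 TPM. For both, replicates 1 and 2 were close and replicate 3 stood above them. Cldn12 had 16.8, 8.58 and 9.14 TPM and Cldn10, a claudin that forms ion channels, had 6.77, 3.69 and 2.53 TPM. These 2 claudins were highest in replicate 1, the reverse of Cldn4. Cldn7 had 9, 0 and 3 counts.

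The scaffold Tjp1 (ZO-1) had 22.8, 20.1 and 17.1 TPM and Tjp3 (ZO-3) had 11, 10.9 and 15.1 TPM, so that Tjp1 was higher in every library but only 1.14-fold in replicate 3. Tjp3 overlaps Apba3 on the opposite strand (57.5 TPM), and since the strand setting of the counting is not given in the sources used here, reads of the pair cannot be told apart. Of the 39 genes, 12 overlapped another annotated gene, and for Tjp3 alone that gene was detected. Ocln (occludin), which takes part in the tight junction strand, had 15.0, 12.5 and 12.4 TPM.

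Of the connexins, Gja1 (connexin 43) had 105, 109 and 137 TPM and Gjb5 had 74.4, 107 and 123 TPM, and the pair took 51.8% ± 2.82 and 44.3% ± 4.81 of the TPM of the 4 connexins (SD, n = 3). Gjb2 (connexin 26) and Gjb6 (connexin 30), which are known from differentiating and activated keratinocytes and from hair follicles, were low. Gjb2 had 4.20, 2.40 and 4.23 TPM and Gjb6 had 7.77, 3.28 and 3.63 TPM. Gja1 was 24.9, 45.5 and 32.5 times Gjb2.

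Ordered by mean TPM, the 39 genes ran from Dsp, Dsc3, Pkp3, Jup, Ctnna1 and Cdh1 at the top to Pkp2, Cldn7, Cdh2 and Ctnna2 at the bottom, and 14 had a mean of at least 100 TPM. Neighbours in this order were said to differ beyond their spread where the same gene was higher in all 3 libraries and the mean log2 difference was above its SD. This held for 12 of 38 neighbouring pairs. It held for Dsp over Dsc3 and Dsc3 over Pkp3, while Pkp3, Jup, Ctnna1 and Cdh1 formed a run in which no neighbour differed from the next. Across 18 pairs of related genes, 17 had the same member higher in 3 of 3 libraries (two-sided exact sign-flip permutation p = 0.25 each, the smallest that 3 libraries allow, Benjamini-Hochberg adjusted p = 0.265). No pair can therefore reach 0.05 in this design. The exception was Gjb2 and Gjb6, whose log2(TPM + 1) difference was -0.75, -0.33 and 0.18.

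The junction genes did not all peak in the same library. Of the 34 detected ones, 16 (47.1%) peaked in replicate 3, 10 (29.4%) in replicate 2 and 8 (23.5%) in replicate 1. Over all 13664 detected genes these shares were 20.4%, 20.0% and 59.6%. In turn, 20 of the 34 (58.8%) were lowest in replicate 1, against 25.3% of all genes. The 16 highest in replicate 3 included Dsc1, Cldn4, Cldn3, Nectin3, Nectin4 and Dsg1a, and the 8 highest in replicate 1 were Afdn, Cldn10, Cldn12, Gjb6, Cldn1, Tjp1, Ocln and Pkp4. Beside this, 7 of the 8 suprabasal markers were highest in replicate 3 (Krt10 had 1180.7, 1588.1 and 2910.1 TPM) and 0 of the 6 basal markers were highest in replicate 1 (Krt5 had 13894.7, 21327.5 and 18479.0 TPM). The upper follicle markers went the other way, with 4 of 6 highest in replicate 1 and 0 in replicate 3. The part of these other transcripts in the spread of the junction genes was not tested.

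**Figure D3:**
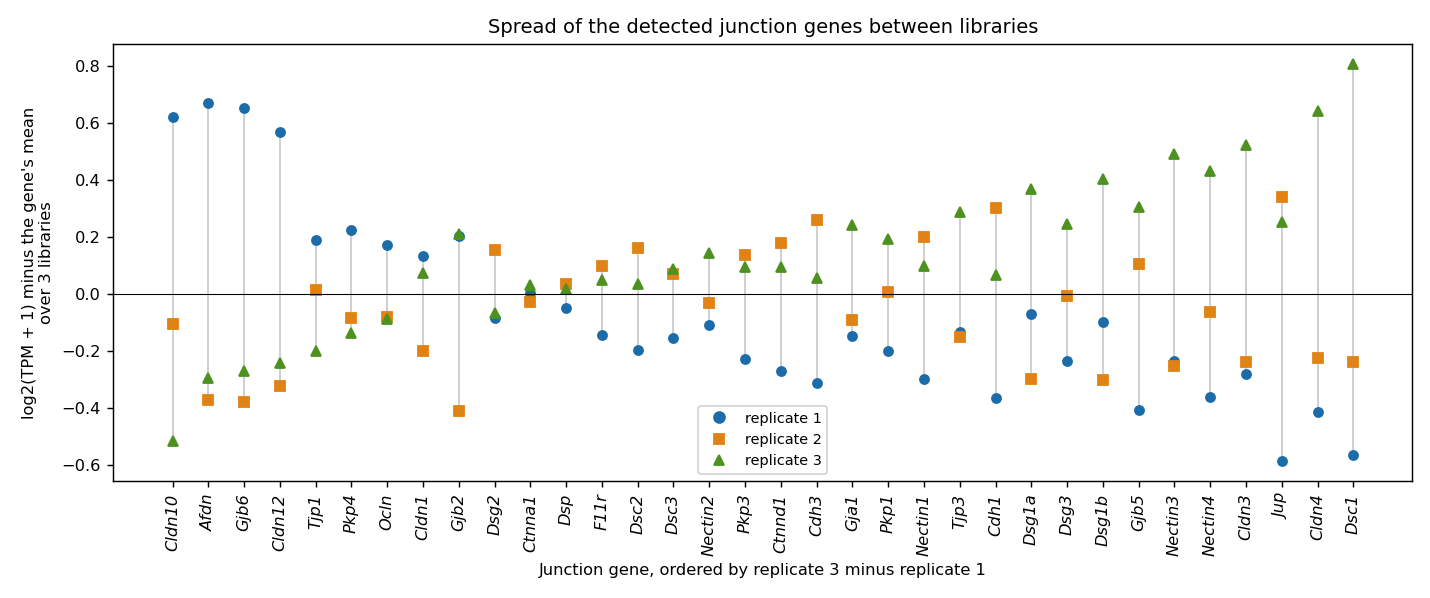
log2(TPM + 1) of each of 34 junction genes in replicates 1, 2 and 3, minus the gene's mean over the libraries, ordered by replicate 3 minus replicate 1. Cldn10, Afdn, Gjb6 and Cldn12 at the left are highest in replicate 1, Ctnna1 and Dsp in the middle hardly vary, and Cldn4 and Dsc1 at the right are highest in replicate 3.

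The biological coefficient of variation, the spread between replicates beyond counting noise as edgeR estimates it per gene from the counts, was 0.274 in the median over the 36 junction genes that passed the filter on low counts. The median over all 13519 genes in the fit was 0.247. Within the junction genes it ran from 0.144 for Tjp1 to 0.600 for Pkp2. Without replicate 1 the median of the junction genes was 0.119 and that of all genes 0.133.

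The authors' deposited table also holds 1 fold change per gene. Other column names in the same table carry the word bulge, so the fold change was taken to set these libraries against bulge libraries, which were not analysed here. Its direction was read from genes without counts in these libraries: of 2555 such genes, 2555 had a negative value, so a positive one means higher in the Alpha6+/Sca1- libraries. An adjusted p-value stood in the authors' deposited table for 36 of the 39 junction genes, and 22 of them (61.1%) were under 0.05, against 55.5% of the 20274 genes with such a value. Junction genes thus passed at about the background share. By direction, 14 (38.9%) were higher and 8 (22.2%) lower in the authors' deposited table, against 23.6% and 32.0% of all genes, and 35.1% and 25.6% of detected genes. With a log2 fold change of at least 1 in size as well, 10 were higher and 4 lower in the authors' deposited table, against 19.0% and 27.3% of all genes. The median log2 fold change in the authors' deposited table was 0.47 over the junction genes and -0.36 over all genes with an adjusted p-value.

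Desmosome genes went both ways in that comparison. Of 14 genes, 4 (28.6%) were called higher and 6 (42.9%) lower in the authors' deposited table. The shares were 23.6% and 32.0% over all genes, and 35.1% and 25.6% over detected genes. The plaque genes Pkp3, Pkp1 and Jup were higher, with log2 fold changes of 1.86, 1.03 and 0.92 in the authors' deposited table (the authors' adjusted p = 8.47e-13, 0.000928 and 0.00587). The basal cadherins Dsg3 and Dsc3 were lower there, with -1.22 and -0.70 in the authors' deposited table (the authors' adjusted p = 8.8e-06 and 0.00539). Dsp and Pkp4, which are also plaque genes, were lower too, with -0.66 and -0.64 in the authors' deposited table. Dsg2 had -1.09 in the authors' deposited table. Dsc1, the cadherin of differentiating cells, was higher by 0.95 in the authors' deposited table (the authors' adjusted p = 0.0395). For the Dsg1 copies the authors' deposited table gave 0.64 for Dsg1a (adjusted p = 0.0706), -1.59 for Dsg1b (adjusted p = 2.74e-07) and 0.40 for Dsg1c (adjusted p = 0.721), and the uncertain split among copies touches each of these. Dsc2 at -0.31 and Pkp2 at 0.73 missed the threshold in the authors' deposited table.

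Of 9 adherens junction genes with an adjusted p-value, 4 (44.4%) were called higher and 0 lower in the authors' deposited table. The shares were 23.6% and 32.0% over all genes, and 35.1% and 25.6% over detected genes. The 4 called higher were Nectin4, Nectin2, Nectin1 and Ctnna1, with log2 fold changes of 2.07, 1.61, 0.70 and 0.51 in the authors' deposited table. Cdh1 at -0.08, Cdh3 at 0.22, Ctnnd1 at 0.18, Nectin3 at -0.17 and Afdn at -0.23 missed the threshold in the authors' deposited table, which does not show that they are equal.

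The widest range was among tight junction genes. Of 9 with an adjusted p-value, 4 (44.4%) were called higher and 2 (22.2%) lower in the authors' deposited table. All genes gave 23.6% and 32.0%, and detected genes 35.1% and 25.6%. Cldn4 had a log2 fold change of 5.03 in the authors' deposited table (the authors' adjusted p = 3.5e-18), the largest of the 38 junction genes with a fold change. Cldn3 had 3.24, Tjp3 2.39 and F11r 1.28 in the authors' deposited table. Against these, Tjp1 had -1.82 in the authors' deposited table (the authors' adjusted p = 3.38e-21) and Cldn12 -0.73. Thus the scaffolds Tjp1 and Tjp3 were called in opposite directions, with the overlap of Tjp3 and Apba3 named above. Cldn1 at -0.38, Ocln at 0.19 and Cldn10 at 0.82 missed the threshold in the authors' deposited table. Of the connexins, Gjb6 at 1.78 and Gjb5 at 1.15 were called higher in the authors' deposited table, and Gja1 at 0.54 and Gjb2 at 0.44 were not called. These 2 calls were 50.0% of 4 genes, against 23.6% of all genes and 35.1% of detected ones called higher.

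**Figure D4:**
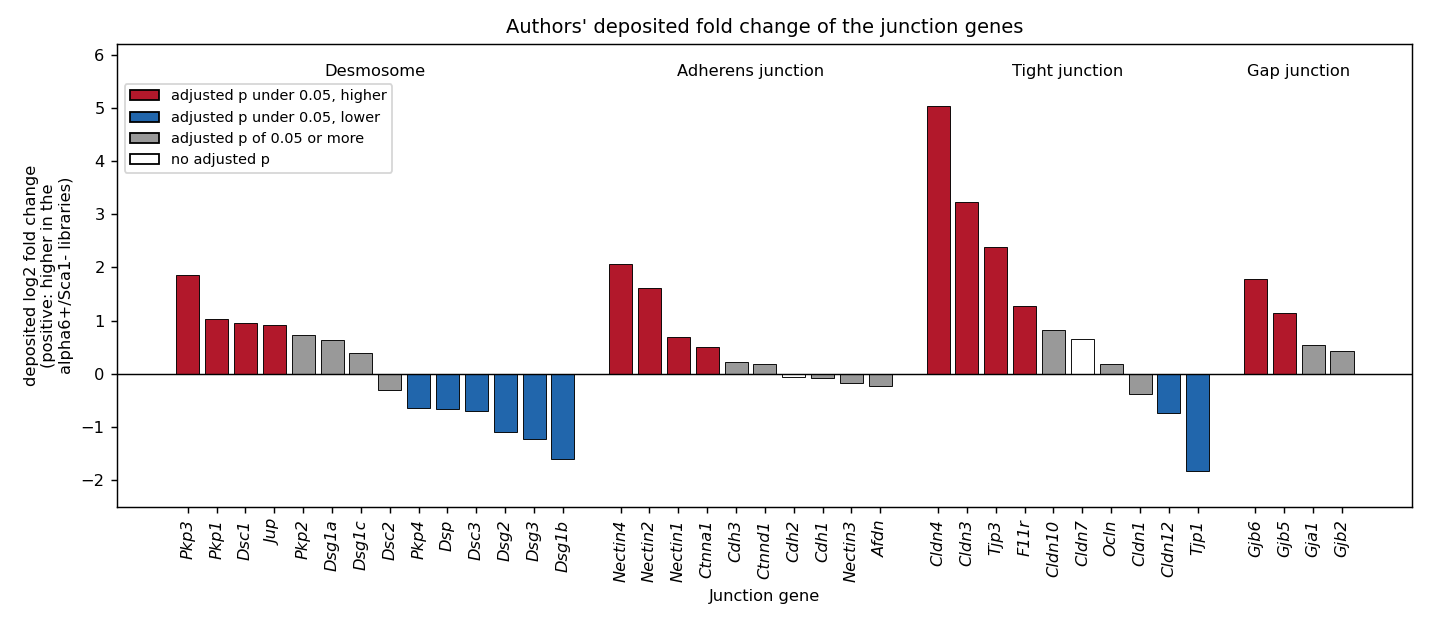
Log2 fold change of 38 junction genes from the authors' deposited table, by junction type, coloured by the authors' adjusted p-value and its direction. Cldn4 at 5.03 is the tallest bar, and desmosome genes reach from Pkp3 at 1.86 to Dsg1b at -1.59.

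Markers of other cell states moved with the same comparison. All 8 suprabasal markers were called higher in the authors' deposited table, with a median log2 fold change of 3.19, and so were 5 of the 6 upper follicle markers, with a median of 2.51. Basal markers were higher in 4 (66.7%) and lower in 1 (16.7%) of 6 cases in the authors' deposited table. Hair follicle stem cell markers were higher in 3 (37.5%) and lower in 3 (37.5%) of 8 cases there. Over all genes 23.6% were called higher and 32.0% lower, and over detected genes 35.1% and 25.6%. The part of these markers in the fold changes of the junction genes was not tested.

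The table carries a whole number per gene headed H3K27me3, the histone mark laid down by Polycomb at silent genes, whose unit and source cells are not given in the sources used here. It was above 0 for 6 of the 39 junction genes (15.4%), against 8.06% of all gene entries and 11.2% of protein-coding ones in the authors' deposited table. Those 6 were Cldn7, Cdh2, Cldn3, Gjb2, Gjb6 and Cldn4, so no plaque protein, catenin, nectin or desmosomal cadherin was among them. The values were 10312 for Cldn7, 8798 for Cdh2, 7702 for Cldn3, 5475 for Gjb2, 3343 for Gjb6 and 2793 for Cldn4 in the authors' deposited table, where the median of all values above 0 was 7593. Cldn7 and Cdh2 were nearly without counts. The other 4 had mean TPM of 4.62, 3.61, 4.89 and 39 in that order, which makes 11.8% of the 34 detected junction genes, against 3.52% of protein-coding genes at that level.

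Both pairs among them are neighbours in the genome (GRCm38). Cldn4 (chromosome 5, 134945119 to 134946934, minus strand) and Cldn3 (134986214 to 134987472, plus strand) lie 39279 bases apart. Every other protein-coding gene within 50000 bases of either, Cldn13 and Abhd11 among them, had a value of 0 in the authors' deposited table. Gjb2 (chromosome 14, 57098600 to 57104702, minus strand) and Gjb6 (57123303 to 57133611, minus strand) lie 18600 bases apart, and the nearby connexin gene Gja3 had 5025 in the authors' deposited table and 0.0200 TPM. Gm4491, within 50000 bases of both, had a value of 0 there and 0 TPM. No gene on its chromosome shared the number of any of the 6. Around Cldn7 (chromosome 11, 69964779 to 69967885, plus strand), all 11 protein-coding genes within 50000 bases had a value of 0 in the authors' deposited table.

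The authors combined this value with the fold change and adjusted p-value in a score, and Cldn4 stood at rank 16 and Cldn3 at rank 45 of 20274 scores in the authors' deposited table. Gjb6 was at rank 177 and Gjb2 at rank 436 there. The highest junction gene with an H3K27me3 value of 0, Pkp3, was at rank 1675 in the authors' deposited table. These ranks follow from how the score is built and add no measurement.

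The sequence just before the start of these genes is shown for Cldn4, Cldn3, Gjb2, Gjb6 and Cldn7, since Polycomb targets are often rich in CpG there, and for Jup and Gja1 as expressed junction genes with a value of 0. Each is the 250 bases before the RefSeq start on GRCm38.p6, free of GENCODE exons, in the direction of the gene, with every CG in capitals. Where the H3K27me3 signal lies relative to these bases is not given in the sources used here.
Cldn4, chr5:134946935-134947184, minus strand: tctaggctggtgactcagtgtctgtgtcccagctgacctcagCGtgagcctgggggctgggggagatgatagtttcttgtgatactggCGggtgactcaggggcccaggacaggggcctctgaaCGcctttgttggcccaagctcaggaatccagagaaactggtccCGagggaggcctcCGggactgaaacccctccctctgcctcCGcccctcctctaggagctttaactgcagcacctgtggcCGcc
Cldn3, chr5:134985964-134986213, plus strand: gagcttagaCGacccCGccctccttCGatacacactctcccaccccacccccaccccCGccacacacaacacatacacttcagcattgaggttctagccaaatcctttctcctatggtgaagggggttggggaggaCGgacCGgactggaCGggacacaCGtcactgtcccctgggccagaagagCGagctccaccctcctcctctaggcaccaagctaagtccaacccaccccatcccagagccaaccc
Gjb2, chr14:57104703-57104952, minus strand: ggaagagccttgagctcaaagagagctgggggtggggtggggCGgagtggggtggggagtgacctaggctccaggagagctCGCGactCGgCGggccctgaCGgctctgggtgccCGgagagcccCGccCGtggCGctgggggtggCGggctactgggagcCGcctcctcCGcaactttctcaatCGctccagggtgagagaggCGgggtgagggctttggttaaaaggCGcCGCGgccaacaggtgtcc
Gjb6, chr14:57133612-57133861, minus strand: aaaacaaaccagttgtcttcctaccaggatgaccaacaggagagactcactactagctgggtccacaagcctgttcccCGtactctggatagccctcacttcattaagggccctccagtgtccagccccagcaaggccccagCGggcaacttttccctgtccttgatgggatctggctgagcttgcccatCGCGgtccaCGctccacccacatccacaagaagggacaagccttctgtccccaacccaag
Cldn7, chr11:69964529-69964778, plus strand: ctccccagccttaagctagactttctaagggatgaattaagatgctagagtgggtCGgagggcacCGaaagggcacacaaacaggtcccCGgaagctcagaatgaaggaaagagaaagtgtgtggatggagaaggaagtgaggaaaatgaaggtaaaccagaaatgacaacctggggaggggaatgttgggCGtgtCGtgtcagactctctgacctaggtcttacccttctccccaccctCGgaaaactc
Jup, chr11:100397791-100398040, minus strand: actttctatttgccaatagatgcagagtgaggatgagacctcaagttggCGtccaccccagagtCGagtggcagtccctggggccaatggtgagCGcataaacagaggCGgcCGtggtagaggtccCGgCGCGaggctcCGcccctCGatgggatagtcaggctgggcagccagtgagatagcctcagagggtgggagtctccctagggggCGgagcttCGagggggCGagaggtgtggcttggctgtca
Gja1, chr10:56377050-56377299, plus strand: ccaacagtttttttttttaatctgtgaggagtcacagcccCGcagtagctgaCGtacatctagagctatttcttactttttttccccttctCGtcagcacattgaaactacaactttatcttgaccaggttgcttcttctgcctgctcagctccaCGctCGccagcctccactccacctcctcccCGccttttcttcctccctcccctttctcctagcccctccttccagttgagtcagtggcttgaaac

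These windows held 7 CG for Cldn4, 9 for Cldn3, 18 for Gjb2, 5 for Gjb6 and 6 for Cldn7, and 13 for Jup and 6 for Gja1. Windows on chromosome 18 were left out of the search and of the background, so the desmogleins, desmocollins, Cdh2 and Ctnna1 have none here. The 31 windows of the 23 junction genes searched ranged from 2 to 51 CG with a median of 14. The median of all 32536 windows searched was 6. A further window of Cldn7, not shown since it overlaps GENCODE exons, held 10 CG. Marked and unmarked junction genes thus overlapped in CG number, but among the marked ones only Gjb2 was above the median of 14. The Grainyhead-like motif, searched as AACCNGTT on both strands, was in 1 of the 31 windows, that of Gjb6, and in 1.79% of all windows. The letters CACCTG, an E-box read by Snail and Zeb factors, were present on either strand in 10 of the 31 windows, those of Cldn4 and Gjb2 shown above among them, and in 17.3% of all windows.

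Another 50 junction genes outside the 39 were read from a list. Of 42 with an adjusted p-value in the authors' deposited table, 13 were called higher and 10 lower (54.8% called, next to the 55.5% of all genes). The highest by TPM were Perp, a desmosome membrane protein that p63 controls, with 2993.2 ± 362 TPM, Ctnnb1 (beta-catenin) with 345 ± 29.3 TPM and Ajuba, a LIM protein at adherens junctions, with 174 ± 31.7 TPM (SD, n = 3). Perp alone thus had a level close to that of all 14 desmosome genes summed. Crb3, an apical polarity protein, and Cdsn, the corneodesmosin of the outer epidermis, were highest by log2 fold change among the list's calls, with 2.54 and 2.58 in the authors' deposited table. Cdsn had 42.9, 95.5 and 154 TPM, the same order over the libraries as Dsc1. Dsg4, the desmoglein of the hair shaft, and Jam2 were lowest, with -4.56 and -3.73 in the authors' deposited table and 0.0711 and 0.0750 TPM here. An H3K27me3 value above 0 stood in the authors' deposited table for 10 of the 50 genes (20.0%, against 11.2% of protein-coding genes). Of the 33 detected ones it was above 0 for Cldn23 and Cdh11 (6.06%, against 3.52% of detected protein-coding genes).

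Of 14 transcription factors known to act on junction genes, 4 were called higher and 5 lower of 11 with an adjusted p-value in the authors' deposited table (36.4% and 45.5%, against 23.6% and 32.0% of all genes). Klf4, a barrier factor, had 1945.5, 963 and 797 TPM, Trp63 (p63), which drives many desmosome genes, had 259, 273 and 287 TPM, and Grhl2, an activator of Cdh1 and claudin genes, had 90.8, 77.9 and 63.2 TPM. Trp63 was the most even of these, and Klf4 was high in replicate 1 as Afdn was. Ovol1 and Ovol2, which hold epithelial state, had log2 fold changes of 2.56 and 1.94 in the authors' deposited table, while Trp63 had -1.47 and Zeb2 -3.34. Of the repressors of Cdh1, singled out after their values were seen, Snai1, Zeb1, Zeb2 and Twist1 had means of 0.152, 0.0378, 0.0160 and 0.161 TPM, Twist2 had no counts, and all 5 had an H3K27me3 value above 0 in the authors' deposited table. Snai2 differed, with 110, 54.5 and 54.0 TPM and a value of 0 in the authors' deposited table. Over all 14 factors, 6 (42.9%) had a value above 0, against 11.2% of protein-coding genes. Among these 6 was Grhl3, also singled out after its values were seen, with 12526 in the authors' deposited table and a mean of 12.5 TPM.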

How the data were processed

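Polyadenylated RNA of 3 libraries was analysed. Per the file headers, the authors gave raw counts and TPM for each library, and TPM rebuilt from those counts was within 4.72e-06 of theirs. The log2 fold change, its adjusted p-value, the score and the H3K27me3 value per gene were deposited by the authors. The submitters' processing notes name FastQC, TopHat2, SAMtools, DESeq, DESeq2 and the build mm10 (GRCm38), with no role given; counting tool and strand setting are not given in the sources used here. Another 6 columns of per-sample values matched no sample label and were not used. Members were matched to GENCODE M21 by Ensembl identifier. Members and gene lists were chosen with earlier results of these data known. All members are named; of the 2 lists of other genes, the 3 highest by TPM and, among the authors' calls, the 2 largest and the 2 most negative fold changes are named, and others where the text says so. A gene was detected at a mean TPM of 1 or more, and log2 values used a pseudocount of 1, which understates differences of low genes. The upper limit for a gene without counts was set at 3 counts, which covers counting error only. The spread between replicates was estimated with edgeR 4.0.16 (1 group, TMM, filterByExpr, tagwise dispersion with a prior of 1 degree of freedom, tested on simulated data, where gene-wise values of variable genes were pulled toward the trend). Ratios were tested with an exact sign-flip permutation test. Alternatives were other TPM limits, pseudocounts, scalings, thresholds and leaving out each library.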

Additional observations from a re-analysis of the deposited data

How the results depend on the processing

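The number of detected junction genes was 35 with a limit of 0.5 TPM and 28 with 5 TPM, and 34 without any 1 library. The 90 alternative values of the 18 gene ratios (another pseudocount, no length correction, each library left out) all kept their sign. Between 15 and 18 junction genes were highest in replicate 3 over the scalings and filters run, and 14 without the Dsg1 copies, an alternative chosen after seeing the data. The median coefficient of variation ranged from 0.119 without replicate 1 to 0.314 without replicate 2, and the cause was not tested. Requiring a log2 fold change of at least 1 in size left 4 junction genes lower in the authors' deposited table instead of 8, since this threshold is stricter, and 10 higher instead of 14; background shares were then 27.3% and 19.0%. No paired analysis was possible because all 3 libraries form 1 group. Upper-quartile scaling moved no library by more than 0.01 on the log2 scale. Genes with few counts, such as Cldn7, Cdh2 and Pkp2, are limited by depth.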
